A study of Homo sapiens with 12 samples.

Results

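The IGF-like genes encode small secreted proteins, named for a resemblance to insulin-like growth factors, and a cell-surface receptor. They were examined in 12 RNA-seq libraries of HT-29, an established colon adenocarcinoma line. The members are IGFL1, IGFL2, IGFL3, IGFL4 and IGFLR1, 5 of the 25528 rows of the authors' table, and all 5 were present. They were chosen by symbol, after IGFL4 had been seen among the largest rises following APC knockdown in these same libraries. The level of IGFL4 in that comparison, and its difference between the comparisons, also known beforehand, are therefore given as descriptions with no test. The other members were taken by name alone.

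The labels give the genotype of all 12 libraries as APC mutant, so the controls carry it too. Cells received lentivirus, and there were 4 groups of 3 libraries. The GFP group (control) and the CTNNB1 group overexpressed the named reading frame and were collected 2 days after infection. CTNNB1 encodes beta-catenin, the transcriptional effector of WNT signalling. The shNT1 group (control hairpin) and the shAPC group (hairpin against APC) were harvested after 1 day of doxycycline at 2 µM, which switches the hairpin on. APC is part of the complex that targets beta-catenin for degradation. The comparisons were CTNNB1 against GFP and shAPC against shNT1, and ask how stronger WNT signalling changes expression. The labels do not say whether replicates came from separate cultures, so p-values measure the spread between these libraries, which may be technical. Nor do they say whether the infected cells were pooled or clonal.

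IGF-like proteins are short, cysteine-rich and secreted. IGFL1 is known as a ligand of IGFLR1, a membrane protein with an extracellular part like that of tumour necrosis factor receptors, and it is induced in inflamed skin. Little is established about the roles of IGFL2, IGFL3 and IGFL4. In canonical WNT signalling, stabilised beta-catenin enters the nucleus and activates target genes through TCF/LEF factors.

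In GENCODE v29 (GRCh38), the 4 ligand genes lie together on the long arm of chromosome 19. IGFL4 (ENSG00000204869) spans chr19:46039748-46077118 on the minus strand and has 4 annotated transcripts, each with a start of its own. IGFL3 (ENSG00000188624) spans chr19:46120071-46124674 on the minus strand. IGFL2 (ENSG00000204866) spans chr19:46143106-46161299 and IGFL1 (ENSG00000188293) chr19:46229752-46231243, both on the plus strand. The receptor gene IGFLR1 (ENSG00000126246) lies elsewhere on the chromosome, at chr19:35738801-35742453 on the minus strand. It shares 1202 exonic bases with AD000671.2 on the same strand and 78 with KMT2B on the opposite strand. The labels do not state strandedness, and how reads matching more than 1 of these genes were assigned is not given in the sources used here. The IGFLR1 level is uncertain to that extent, as are those of the ligand genes where their sequences are alike.

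The stretches before the gene starts are shown because the ligand genes differed so widely in level and response. They come from RefSeq (GRCh38.p14), which held windows for all 5 members, and run 5′ to 3′ in the direction of the gene. Each window covers 250 bases before an annotated start. IGFL4 has 2 such starts, at position 46077629 and, nearer to the coding exons, at position 46041002. The first lies outside the GENCODE v29 span of the gene given above. No GENCODE transcript of IGFL4 held the stretch checked just after it, against 1 for the second. Annotated exonic bases are left out, which divides the second IGFL4 window into a piece of 142 bases and a piece of 35. Capitals mark 2 searched motifs on either strand. The first is a TCF/LEF heptamer (CTTTG followed by AA, AT, TA or TT) and the second is TATAA, and the printed matches do not overlap.
IGFL4, first start, chr19:46077630-46077879, minus strand: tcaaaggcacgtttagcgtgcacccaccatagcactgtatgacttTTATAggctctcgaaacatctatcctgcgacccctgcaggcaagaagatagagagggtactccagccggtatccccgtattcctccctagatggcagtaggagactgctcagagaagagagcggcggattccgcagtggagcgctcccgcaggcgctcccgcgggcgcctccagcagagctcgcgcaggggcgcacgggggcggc
IGFL4, second start, chr19:46041111-46041252, minus strand: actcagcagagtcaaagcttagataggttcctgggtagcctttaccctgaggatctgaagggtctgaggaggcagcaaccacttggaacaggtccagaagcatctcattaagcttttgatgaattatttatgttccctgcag
IGFL4, second start, chr19:46041017-46041051, minus strand: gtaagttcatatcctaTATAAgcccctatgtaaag
IGFL2, chr19:46147988-46148237, plus strand: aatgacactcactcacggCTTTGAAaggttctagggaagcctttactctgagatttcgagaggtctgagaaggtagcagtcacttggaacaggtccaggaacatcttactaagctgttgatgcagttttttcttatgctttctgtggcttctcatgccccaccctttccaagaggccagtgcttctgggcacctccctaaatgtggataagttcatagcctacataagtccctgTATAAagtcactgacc
IGFL1, chr19:46229492-46229741, plus strand: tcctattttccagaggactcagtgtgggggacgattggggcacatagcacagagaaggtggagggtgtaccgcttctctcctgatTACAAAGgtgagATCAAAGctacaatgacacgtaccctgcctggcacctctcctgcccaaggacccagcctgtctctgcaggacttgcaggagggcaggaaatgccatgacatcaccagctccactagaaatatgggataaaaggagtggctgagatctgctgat

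Neither IGFL4 window held a heptamer. The IGFL2 window held CTTTGAA, from 232 to 226 bases before the start. The IGFL1 window held 2 heptamers on the reverse strand, at 165 to 159 and 153 to 147 bases, of which the second is CTTTGAT. The IGFL3 and IGFLR1 windows, which are not printed, held none. Every base of the IGFLR1 window lies in annotated exons, of IGFLR1 itself, AD000671.2 or U2AF1L4. Of all 35116 RefSeq windows of the same length, 11.96% held a heptamer and 2.26% held CTTTGAT. The other motif, TATAA, stood on the reverse strand 205 to 201 bases before the first IGFL4 start. On the forward strand it stood 33 to 29 bases before the second IGFL4 start and 16 to 12 bases before the IGFL2 start, and 18.93% of all windows held it on either strand. The window of the first IGFL4 start was 61.6% G or C with 20 CG dinucleotides, against 45.2% and 1 CG for the second. Aligned end to end, the second IGFL4 window and the IGFL2 window had 186 identical bases among 245 aligned (75.9%). That was the highest share among the 15 pairs of member windows. The motif search, base composition and alignments took whole windows, including the annotated exonic bases that are not printed. The table gives TPM per gene, so transcripts from the 2 IGFL4 starts were not separated. The motif matches are letters in a window, and binding was not measured.

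The perturbed genes were checked first. APC lay between 15.8 and 17.3 TPM in shNT1 and between 5.48 and 6.59 TPM in shAPC. CTNNB1 lay between 144 and 150 TPM in GFP and between 156 and 165 TPM in the CTNNB1 group. TPM does not separate the construct from endogenous transcripts. Of 13 WNT target genes listed for this check, 9 had a mean of at least 1 TPM in both groups of each arm, and 8 of these rose in the CTNNB1 arm and 9 in the shAPC arm (limma, adjusted p under 0.05). NKD1 and NOTUM passed the filter of the fit only through the perturbed groups and are not counted. Of all genes tested, 16.3% were higher in the CTNNB1 arm and 7.24% in the shAPC arm. The list was chosen with earlier results of these data known, so it is no independent check. Epithelial markers fitted the line except the colonic factor CDX2: 7 of 8 reached 1 TPM, while CDX2 stayed at or under 0.875 TPM. The summed level of the epithelial list was 10825 to 10966 TPM in GFP, 12264 to 12403 in CTNNB1, 8681 to 10451 in shNT1 and 8594 to 9518 in shAPC. Its part in the results was not tested. Of 7 keratinocyte markers only KRT10 reached 1 TPM, and KRT5, KRT14 and TP63 stayed at or under 0.0659 TPM. Of 6 fibroblast markers LUM reached 1 TPM (up to 1.197 TPM), and none of 4 endothelial markers did (PECAM1 up to 0.478 TPM). Of 7 immune markers 2 reached 1 TPM, LYZ at 6466 to 8019 TPM and CD14 at 1.63 to 3.15 TPM, whereas PTPRC stayed at or under 0.0217 TPM and CD3E and MS4A1 were listed at 0 in all 12 libraries. The summed immune level was 6467 to 6555 TPM in GFP, 6783 to 7721 in CTNNB1, 6789 to 7087 in shNT1 and 7280 to 8021 in shAPC, and its part in the results was not tested. How deeply each library was sequenced cannot be read from TPM.

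**Figure D1:**
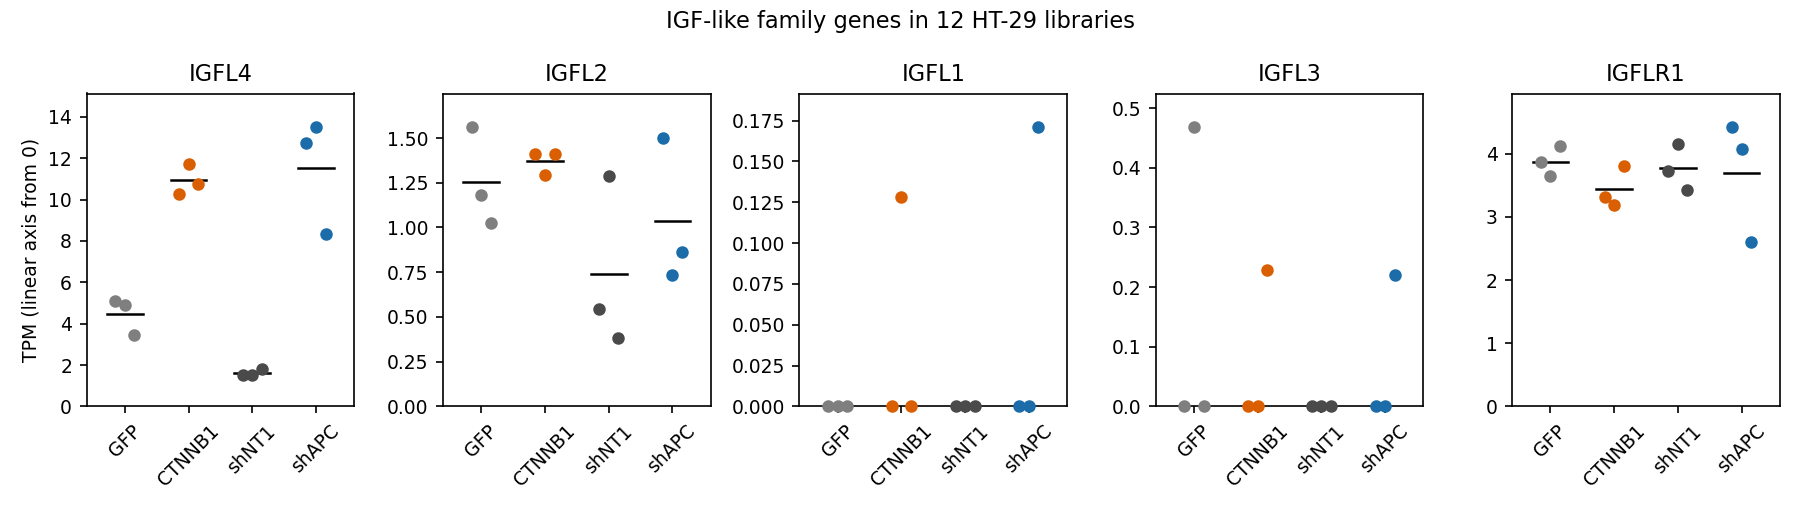
TPM of each IGF-like gene in every library, 1 panel per gene with its own linear axis from 0, points for libraries and bars for group means (no bars for IGFL1 and IGFL3, listed at 0 in most libraries). IGFL4 separates perturbed from control libraries in both arms, while the groups of IGFL2 and IGFLR1 overlap.

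IGFL4 was the most abundant ligand gene in every library and was higher under both perturbations. Its level was 5.08, 4.92 and 3.46 TPM in the GFP libraries and 10.3, 11.7 and 10.8 TPM in the CTNNB1 libraries. All 3 CTNNB1 libraries lay above all 3 GFP libraries, and GFP replicate 3 was the lowest. The group means were 4.48 ± 0.894 and 10.9 ± 0.718 TPM (SD, n = 3 each), a ratio of 2.44. IGFL4 rose in the CTNNB1 arm by 1.13 on the log2(TPM + 1) scale (SE 0.12, 95% interval 0.87 to 1.40, limma adjusted p = 0.00017). That was the rise ranked 46 among 11621 genes tested. The CTNNB1 and GFP libraries also enter the difference between the arms, which was known beforehand. This test is therefore not independent of the choice of the gene.

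In the hairpin libraries IGFL4 started from a lower level. It was at 1.53, 1.51 and 1.81 TPM in shNT1 and at 12.8, 13.5 and 8.33 TPM in shAPC. The groups did not overlap, and the spread was wider in shAPC, where replicate 3 was the lowest. The means were 1.62 ± 0.170 and 11.5 ± 2.80 TPM (SD, n = 3 each), a ratio of 7.13. This is the comparison through which the gene came to notice. Described with no test, its log2 difference was 2.23, ranked 6 among 11831 genes, and 2.43 without shAPC replicate 3. Pseudocounts shrink changes of weakly expressed genes, and with 0.1 in place of 1 the differences were 1.28 in the CTNNB1 arm and 2.73 in the shAPC arm. The authors' deposited tables give log2 fold changes of 1.21 and 2.75 for IGFL4.

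The IGFL4 level increased in the order shNT1, GFP, CTNNB1, shAPC. The CTNNB1 and shAPC libraries overlapped, and the other neighbours in this order did not. The 2 controls thus stood apart, by 1.62 against 4.48 TPM, whereas the perturbed means were 10.9 and 11.5 TPM. Vector, collection day and doxycycline differ between the arms, and their part in the control levels cannot be told apart. The effect in the CTNNB1 arm minus that in the shAPC arm was -1.10 on the log2 scale, given as a description.

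IGFL2 was the other ligand gene with a value above 0 in every library, and it did not pass the test in the CTNNB1 arm. It was at 1.56, 1.18 and 1.03 TPM in GFP and at 1.41, 1.29 and 1.41 TPM in CTNNB1. All 3 CTNNB1 values lay within the range of the GFP values. The log2 fold change was 0.08 (SE 0.12, 95% interval -0.19 to 0.34, limma adjusted p = 0.67). Its sign turned under quantile normalization (-0.06, adjusted p = 0.75).

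In shNT1 IGFL2 was at 0.546, 1.29 and 0.385 TPM, and in shAPC at 1.5003, 0.737 and 0.865 TPM. The groups overlapped, with shNT1 replicate 2 above 2 of the 3 shAPC libraries. Its mean over these 6 libraries was under 1 TPM, so it was not tested there, and its log2 difference was 0.24. With no filter it had an adjusted p of 0.55 (limma). Over all 12 libraries the IGFL2 difference between the arms was -0.16 (SE 0.26, 95% interval -0.71 to 0.39, limma adjusted p = 0.69). The order of its group means was shNT1, shAPC, GFP and CTNNB1, and each neighbouring pair overlapped.

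IGFL1 and IGFL3 were listed at 0 in most libraries. IGFL1, a known IGFLR1 ligand, was listed at 0 in 10 of 12 libraries. Its other values were 0.128 TPM in CTNNB1 replicate 2 and 0.171 TPM in shAPC replicate 3. IGFL3 was listed at 0 in 9 of 12, with 0.468 TPM in GFP replicate 2, 0.228 TPM in CTNNB1 replicate 3 and 0.220 TPM in shAPC replicate 3. No group had a value above 0 in more than 1 library, so whether either gene follows a condition cannot be read from these values. A gene was to be called not expressed where it stayed under 0.1 TPM in all 12 libraries. By that limit no member was without expression, but IGFL1 and IGFL3 missed it by 2 and 3 libraries and stayed under 1 TPM in all 12. Neither was tested. The authors' deposited table for the hairpins gives both genes the same log2 fold change of 0.46 and the same mean log2 expression of -5.44, close to the lowest mean of that table (-5.70).

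The antisense gene IGFL2-AS1 (ENSG00000268621), not a member, also stayed under 1 TPM. It lay between 0.0646 and 0.118 TPM in GFP and between 0.0453 and 0.0631 TPM in CTNNB1. In shNT1 it was at 0.215, 0.0635 and 0.252 TPM, and in shAPC it was listed at 0 in 2 libraries and at 0.121 TPM in the other. At these levels it was not tested. The pseudogenes IGFL1P1 and IGFL1P2 were not analysed here.

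IGFL4 took a larger part of the family's ligand transcripts under both perturbations. It made up 76.5%, 74.9% and 77.1% of the summed TPM of the 4 ligand genes in GFP and 87.9%, 89.2% and 86.8% in CTNNB1. It made up 73.8%, 53.9% and 82.5% in shNT1 and 89.5%, 94.8% and 86.9% in shAPC. The perturbed libraries lay above their own controls in both arms. The share is computed from the IGFL4 level itself, so it restates the IGFL4 rise and is no separate result. The low share in shNT1 replicate 2 is that of the library with the highest IGFL2 level of its group.

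The receptor gene IGFLR1 passed the test in neither arm. It was at 3.86, 3.65 and 4.12 TPM in GFP and at 3.31, 3.19 and 3.81 TPM in CTNNB1. The groups overlapped through CTNNB1 replicate 3. The means were 3.87 ± 0.235 and 3.44 ± 0.332 TPM (SD, n = 3 each). The log2 fold change was -0.14 (SE 0.09, 95% interval -0.34 to 0.07, limma adjusted p = 0.30). Alternatives with every library gave -0.26 to -0.14, and those without 1 library gave -0.20 to -0.10. The largest fall was under quantile normalization (limma adjusted p = 0.067). The authors' deposited value is -0.26 (limma p = 0.033, adjusted p = 0.19).

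IGFLR1 was at 3.72, 4.15 and 3.43 TPM in shNT1 and at 4.42, 4.07 and 2.597 TPM in shAPC. The groups overlapped, and shAPC replicate 3 was the lowest of all 12 libraries. The means were 3.77 ± 0.365 and 3.70 ± 0.968 TPM (SD, n = 3 each), with a log2 fold change of -0.04 (SE 0.15, 95% interval -0.37 to 0.29, limma adjusted p = 0.87). Without shAPC replicate 3 it was 0.14 (adjusted p = 0.45), and without shNT1 replicate 2 it was 0.02 (adjusted p = 0.96), so the sign turned when either library was left out. The difference between the arms was -0.10 (SE 0.18, 95% interval -0.49 to 0.30, limma adjusted p = 0.75). All neighbouring group means of IGFLR1, in the order CTNNB1, shAPC, shNT1 and GFP, had overlapping libraries.

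The level of IGFL4 relative to IGFLR1 was higher under both perturbations. The TPM ratio of ligand to receptor was 1.32, 1.35 and 0.839 in GFP and 3.11, 3.68 and 2.83 in CTNNB1. It was 0.412, 0.363 and 0.529 in shNT1 and 2.89, 3.32 and 3.21 in shAPC. Receptor transcripts outnumbered IGFL4 transcripts in all 3 shNT1 libraries and in GFP replicate 3, and IGFL4 transcripts were the more abundant in the other 8 libraries. The ratio is likewise computed from the IGFL4 level and is no separate result. Protein was not measured, nor was any binding of IGFL4 to this receptor.

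**Figure D2:**
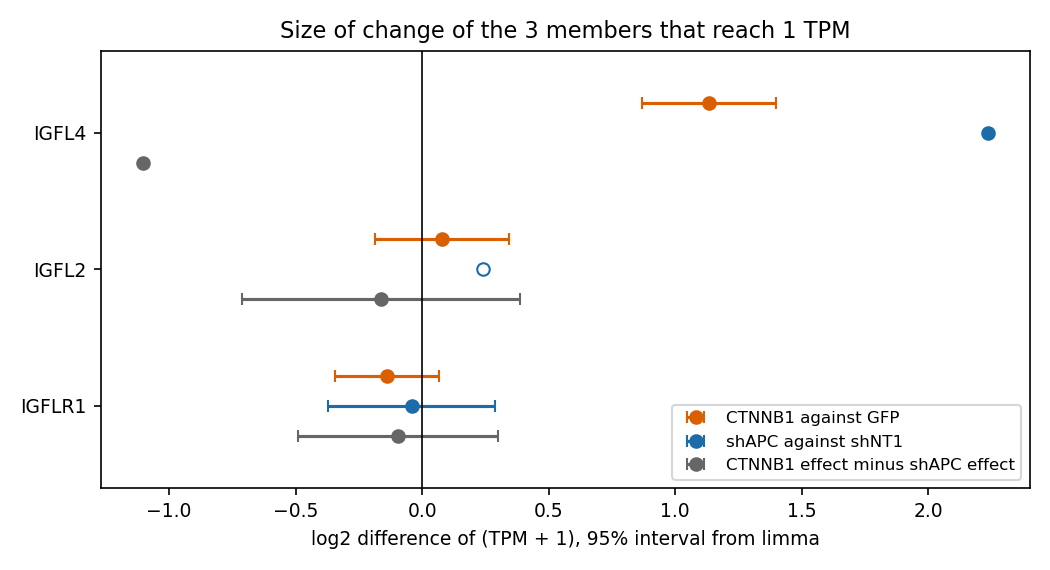
Log2 differences of TPM + 1 for the members that reach 1 TPM, in the CTNNB1 arm, the shAPC arm and between the arms. Bars are 95% limma intervals, and the open point is the untested IGFL2 value of 0.24. IGFL4 has no bar in the shAPC arm and between the arms, where its values were known beforehand. Its interval in the CTNNB1 arm is not independent of the choice of the gene either. The intervals of IGFL2 and IGFLR1 include 0, and that of IGFL4 in the CTNNB1 arm runs from 0.87 to 1.40.

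The counts of members were set beside those of all genes. In the CTNNB1 arm 3 of the 5 members passed the filter of a mean of at least 1 TPM and 1 of these, IGFL4, was called, beside 23.4% of the 11621 genes tested. The groups did not overlap for IGFL4 alone among those 3, beside 43.2% of all genes tested. In the shAPC arm 2 members passed the filter, IGFL4 and IGFLR1, and 22.1% of the 11831 genes tested were called. There 40.9% of the genes tested had groups that did not overlap, as did IGFL4. Between the arms 16.0% of 11738 genes were called, and neither IGFL2 nor IGFLR1 was. With so few members tested, these shares are a background and no result about the family. The balance of calls depended on scaling. Rises made up 69.5% of the calls in the CTNNB1 arm and 32.8% in the shAPC arm for TPM as deposited, against 49.5% and 47.6% under median-ratio scaling. IGFL4 was higher under every scaling tried, by 1.04 to 1.13 in the CTNNB1 arm and 2.22 to 2.27 in the shAPC arm.

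**Figure D3:**
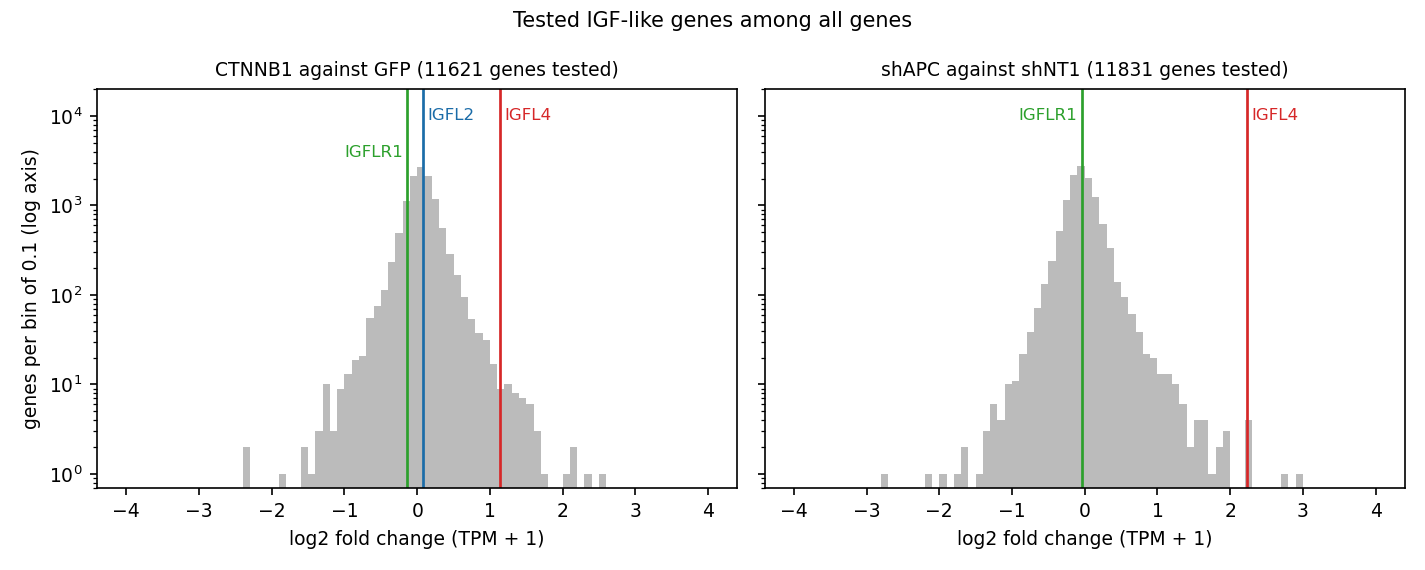
Log2 fold changes of all genes tested in each arm (grey histogram, log count axis, bins of 0.1), with lines at the tested IGF-like genes. IGFL4 lies in the upper tail at 1.13 and 2.23. IGFLR1 lies below the median of 0.06 in the CTNNB1 arm, at -0.14 (rank 10003 among 11621 from the largest rise). In the shAPC arm it lies at -0.04, near the median of -0.04.

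The genes whose levels followed IGFL4 most closely were sought over the 12 libraries. Among 11737 other genes with a mean of at least 1 TPM, the highest Pearson r of log2(TPM + 1) belonged to BMP4 (0.977), a secreted growth factor. GRHL3 (0.957), an epithelial transcription factor, AXIN2 (0.9565), a WNT feedback gene, WNT11 (0.950), a WNT ligand, and PRSS23 (0.946), a serine protease, came next. These values describe likeness over the 12 libraries of 4 groups, and carry no test. They include the shAPC libraries through which IGFL4 came to notice. The amplitudes differed widely. BMP4 group means went from 293 TPM in shNT1 through 361 in GFP and 416 in shAPC to 418 in CTNNB1. WNT11 went from 1.53 TPM in shNT1 through 3.28 in GFP and 18.3 in shAPC to 23.4 in CTNNB1. For AXIN2 and GRHL3 the order of the group means was that of IGFL4, with shNT1 lowest (29.9 and 3.09 TPM) and shAPC highest (92.1 and 5.71 TPM). For BMP4, WNT11 and PRSS23 the CTNNB1 mean was the highest.

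**Figure D4:**
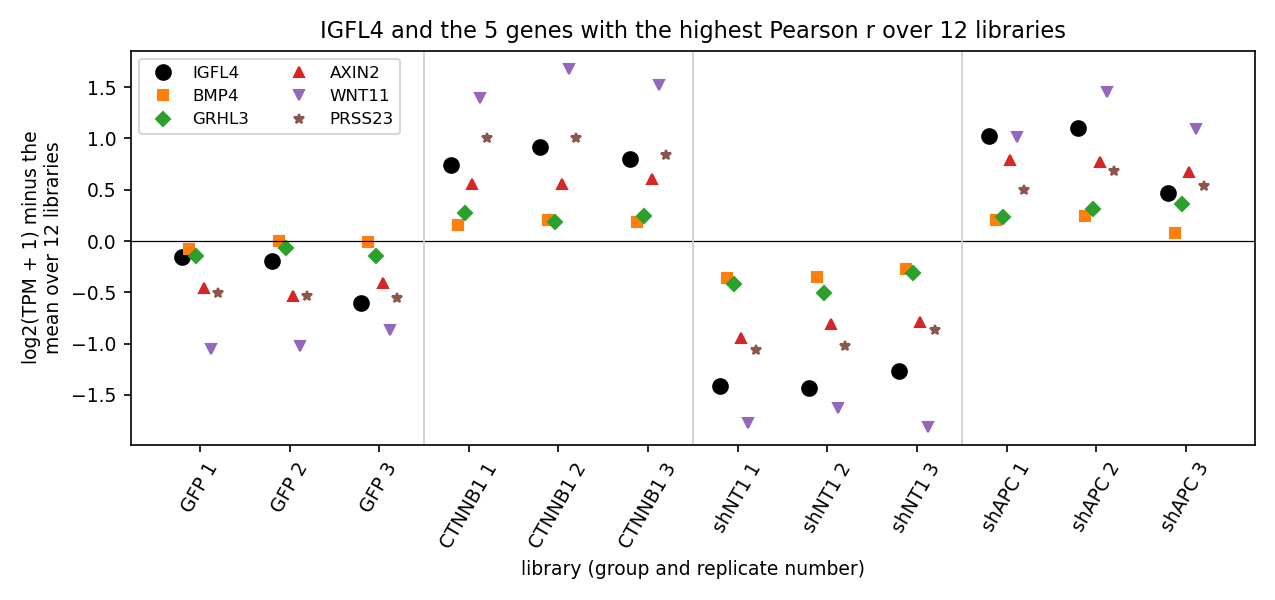
Log2(TPM + 1) of IGFL4 and of the 5 genes with the highest Pearson r to it, each minus its own mean over the 12 libraries, by library. All 6 genes lie below 0 in shNT1 and above 0 in CTNNB1 and shAPC, and BMP4 and GRHL3 span a much narrower range than IGFL4 and WNT11.

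The insulin-like growth factor axis, for which the family is named, had 3 called genes in each arm. Of 29 listed ligands, receptors, binding proteins and adaptors, 10 were tested in each arm. In the CTNNB1 arm 2 rose, 1 fell and 7 did not pass (limma), beside 23.4% of all genes called, with a median log2 fold change of 0.13 against 0.06 over all genes. IGFBP4, a binding protein, rose from 146 to 187 TPM (0.36, limma adjusted p = 0.0062). IRS2, an adaptor of the insulin receptor, rose from 3.54 to 4.69 TPM (0.32, limma adjusted p = 0.039), a call lost under median-ratio scaling and quantile normalization. IGFBP6, another binding protein, fell from 158 to 106 TPM (-0.58, limma adjusted p = 0.0039).

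In the shAPC arm none of the 10 rose and 3 fell, beside 22.1% of all genes called, with a median of -0.15 against -0.04 over all genes. GRB10, an adaptor that dampens receptor signalling, fell from 15.6 to 11.99 TPM (-0.35, limma adjusted p = 0.0040). IGFBP6 fell from 82.9 to 68.6 TPM (-0.27, limma adjusted p = 0.030), a call lost under both scalings. The remaining fall was that of INSR, the insulin receptor (-0.27, limma adjusted p = 0.043), named to complete the count. IGF1R, the receptor of insulin-like growth factors, was between 27.8 and 31.8 TPM in all 4 group means and was not called.

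Relatives of IGFLR1 were taken from the tumour necrosis factor receptor superfamily. Of 29 listed, 11 were tested in the CTNNB1 arm, where 4 fell, 1 rose and 6 did not pass (limma, median log2 fold change -0.14). Of all genes tested there, 7.15% were lower and 16.3% higher. TNFRSF1A, the main receptor of tumour necrosis factor, fell from 93.3 to 70.7 TPM (-0.40, limma adjusted p = 0.0011), and TNFRSF12A fell from 228 to 184 TPM (-0.31, limma adjusted p = 0.0077). TNFRSF11A rose by 0.21 (limma adjusted p = 0.049), a call lost under both scalings. In the shAPC arm 12 were tested and 7 fell, with none higher and a median of -0.21, beside 14.9% lower and 7.24% higher among all genes. TNFRSF10A, a death receptor, fell from 21.5 to 14.0 TPM (-0.58, limma adjusted p = 0.0013) and TNFRSF21 from 305 to 209 TPM (-0.55, limma adjusted p = 0.00031). Under median-ratio scaling the counts were 5 lower and none higher in the CTNNB1 arm, and 5 lower and 1 higher in the shAPC arm. IGFLR1, at -0.14 and -0.04, was not among the called genes in either arm.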

How the data were processed

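The authors deposited a table of TPM, a transcript level scaled for gene length and library total, with a column for each of the 12 libraries. STAR 2.7.3a, limma and hg38 are named per the submitters' processing notes, and the annotation and quantification tool are not given in the sources used here. Another 2 tables, 1 per comparison, hold the authors' own limma results: log2 fold changes, mean log2 expression and, per the file headers, p-values and adjusted p-values. Their t statistic and log-odds score, also deposited, were not used.

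The members and gene lists were chosen with earlier results of these data known. Each arm was fitted on all genes as log2(TPM + 1), using limma 3.58.1 under R 4.3.3 and keeping genes with a mean of at least 1 TPM over its 6 libraries, with a mean-variance trend. P-values were adjusted by the Benjamini-Hochberg method over all genes tested, and a gene was called under 0.05. The difference between the arms was a contrast over all 12 libraries. The log2(TPM + 1) scale understates changes of weakly expressed genes. Rows with repeated names (4) were left out, and 27 names had been turned into dates. The depth per library is unknown, so precision rests on 3 libraries per group. The fits were tested on simulated data.

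All 5 members were named whatever their values, with the 5 genes most correlated with each member of at least 1 TPM, and at most the 2 largest called changes per direction of each list, together with called genomic neighbours. Windows before gene starts came from RefSeq (GRCh38.p14), whose build matches hg38. They were aligned with Biopython 1.88. Alternatives were a replicate block, a pseudocount of 0.1, no filter, a mean of at least 5 TPM, median-ratio scaling, quantile normalization, no variance trend, a fit of all 4 groups, and leaving out each library.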

Additional observations from a re-analysis of the deposited data

Results flagged for a closer look

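The change of IGFL4 is listed here because it was unequal in the 2 arms. That difference was known from earlier results of these data, so it is a description. The effect of CTNNB1 over GFP minus that of shAPC over shNT1 was -1.10 on the log2(TPM + 1) scale. The means were 4.48 TPM in GFP, 10.9 TPM in CTNNB1, 1.62 TPM in shNT1 and 11.5 TPM in shAPC, so the controls were farther apart than the perturbed groups. Under median-ratio scaling the median over all genes went from 0.11 to 0.00 and the IGFL4 value to -1.19. Vector, collection day and doxycycline differ between the arms and cannot be told apart.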

How the results depend on the processing

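The call of IGFL4 in the CTNNB1 arm was kept under all 8 alternatives that used every library (1.04 to 1.28, limma adjusted p 7.7e-05 to 0.0049) and under all 6 that left out a library (0.99 to 1.21). Its difference in the shAPC arm ranged from 2.22 to 2.73, and from 2.12 to 2.43 without a library. In the CTNNB1 arm IGFL4 was the 1 member called under every alternative. As stated above, its test there is not independent of the choice of the gene. IGFL2 in the CTNNB1 arm turned to -0.060 under quantile normalization. IGFLR1 ranged from -0.16 to 0.14 in the shAPC arm and from -0.28 to 0.019 between the arms when a library was left out, turning positive in the first without shNT1 replicate 2 (0.02) or shAPC replicate 3, and in the second without shAPC replicate 1. With a mean of at least 5 TPM, IGFL2 and IGFLR1 gave no value.

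The replicate block changed no member's call, but MYPOP in the shAPC arm, MYPOP and PSENEN between the arms, and INSR in the shAPC arm were no longer called. Of the tumour necrosis factor receptor list 4 fell in the shAPC arm in place of 7, and TNFRSF11A was not called in the CTNNB1 arm. It gave IGFL4 1.13 in the CTNNB1 arm (limma adjusted p = 0.00021), and 1141 genes called between the arms in place of 1876. Same-numbered libraries correlated at 0.22, 0.07 and 0.11 in the CTNNB1 arm, a mean of 0.13 against -0.07 for differently numbered ones. In the shAPC arm same-numbered libraries correlated at -0.15, -0.01 and -0.21, a mean of -0.12 against 0.06. Whether the numbers mark paired samples was not tested. Leaving out a library gave 1495 to 3185 calls over all genes in the CTNNB1 arm, in place of 2724. It gave 1484 to 2252 in the shAPC arm, in place of 2615, and 993 to 2140 between the arms. Counts moved by over 1.5 times without GFP replicates 1, 2 or 3 (1615, 1495 and 1703) or CTNNB1 replicate 2 (1759) in the CTNNB1 arm. They did so without shAPC replicates 2 or 3 in the shAPC arm (1646 and 1484). Between the arms they did so without GFP replicates 1 or 2 (1091 and 993) or shAPC replicates 2 or 3 (1244 and 1020). Fewer libraries entered those fits.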

Other observations

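Genes beside the family on chromosome 19 were looked at as a group. Of the 5 protein-coding genes on each side of the ligand genes in RefSeq, 9 were rows of the table and 3 had a mean of at least 1 TPM. In the CTNNB1 arm their log2 fold changes lay between -0.32 and -0.10, with 0 called and 1 at an unadjusted p under 0.05 (limma). Median-ratio scaling and the replicate block each gave 1 lower call. In the shAPC arm MYPOP, a transcription factor gene, rose from 6.34 to 8.15 TPM (0.31, limma adjusted p = 0.040), and the other two were not called. Its effect also differed between the arms (-0.42, limma adjusted p = 0.049). Of the 10 neighbours of IGFLR1, 7 were tested. In the CTNNB1 arm 0 were called (1 at an unadjusted p under 0.05, limma) and in the shAPC arm 0 (1 at an unadjusted p under 0.05), while median-ratio scaling gave 1 lower call in the first and 1 higher call in the second. Between the arms PSENEN, a gamma-secretase subunit gene, differed (-0.26, limma adjusted p = 0.034). Beside these counts, 23.4% of all genes tested were called in the CTNNB1 arm, 22.1% in the shAPC arm and 16.0% between the arms.

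The genes most like IGFL2 and IGFLR1 were sought in the same way as for IGFL4. The highest Pearson r over 12 libraries was 0.867 for IGFL2, with RBM23, followed by HMOX1, PEX19, OPN3 and LOC101927851 (0.795). For IGFLR1 it was 0.840, with PIGL, followed by FAM109B, NEURL4, ATXN2L and WASHC1 (0.751). Between members, r was 0.48 for IGFL4 with IGFL2, -0.13 for IGFL4 with IGFLR1 and 0.23 for IGFL2 with IGFLR1. These are descriptions over the same 12 libraries, with no test.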
